A study of Mus musculus with 8 samples.

Results

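The 8 hippocampal arrays of this study were divided by how much signal of the choroid plexus they carried. The classes were defined by the processed signal of Ttr, the gene for transthyretin, a thyroxine carrier that the choroid plexus secretes into the cerebrospinal fluid. Arrays with a Ttr signal above 100000 were called choroid-rich and arrays below 10000 choroid-poor, which placed 5 of the 8 arrays in the first class and 3 in the second and left none between. The choroid-rich arrays were control replicates 1 and 4 and anti-CD4 replicates 2, 3 and 4. The choroid-poor arrays were control replicates 2 and 3 and anti-CD4 replicate 1. Every measure described here comes from the same arrays as the Ttr signal, so the adjusted p-values state how closely a gene followed the division by Ttr and test no condition of the study.

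One-colour Agilent arrays measured total RNA of the hippocampus of female C57BL6/J mice, with 4 samples per group. All mice were 8 weeks old per the labels and had been kept for 4 weeks in an enriched environment, so the control samples carry that housing too. The antibody given was a control antibody in one group and anti-CD4 in the other, CD4 being the coreceptor that marks helper T cells. The labels do not tie the samples to different animals, and p-values therefore reflect a spread between samples that could be technical.

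The choroid plexus is a sheet of secretory epithelium that hangs into the brain ventricles and makes cerebrospinal fluid. Its cells are joined by tight junctions, move ions and water from blood to ventricle, and secrete carriers and growth factors into the fluid. The plexus of the lateral ventricle lies along the fimbria of the hippocampus. Ependymal cells, which line the ventricle wall and carry motile cilia, and a stroma of fibroblasts, vessels and macrophages lie beside or beneath the epithelium. In whole tissue, fewer cells of a type and less RNA per cell cannot be told apart.

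Promoters are shown for the genes Aqp1 and Otx2, a water channel and a transcription factor that were both higher in the choroid-rich arrays, because each holds a match to a motif that was searched in all promoters. The motifs were TAATCC, the letters that Otx-type homeodomain proteins bind, and GTTGCC, a part of the X-box bound by RFX factors of ciliated cells. Each was searched on both strands. Each line gives the 250 bases before a RefSeq gene start on GRCm38.p6, 5′ to 3′ on the strand of the gene, and the capitals mark the match.
Aqp1, plus strand, chr6:55336049-55336298: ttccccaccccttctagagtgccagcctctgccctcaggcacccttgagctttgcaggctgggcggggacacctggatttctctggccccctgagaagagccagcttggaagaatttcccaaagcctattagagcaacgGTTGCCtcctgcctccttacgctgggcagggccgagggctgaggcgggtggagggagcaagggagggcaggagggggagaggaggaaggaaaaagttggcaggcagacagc
Otx2, minus strand, chr14:48665110-48665359: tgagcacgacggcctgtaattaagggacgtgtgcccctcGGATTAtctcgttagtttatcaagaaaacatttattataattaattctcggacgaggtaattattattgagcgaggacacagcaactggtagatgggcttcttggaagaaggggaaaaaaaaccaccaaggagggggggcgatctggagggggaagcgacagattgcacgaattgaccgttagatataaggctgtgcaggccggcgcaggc
In Aqp1 the match is GTTGCC on the strand of the gene, beginning 111 bases before the start. In Otx2 it is TAATCC on the other strand, read as GGATTA on the strand of the gene, beginning 211 bases before the start. The RefSeq table holds 4 starts for Otx2. The one shown is the first by coordinate among those with a match to either motif. It is the 1 start with TAATCC, while 2 others hold GTTGCC and 1 holds neither. TAATCC was found in 6.25% of 32851 RefSeq promoters, in 5.28% of those of tested genes and in 9.88% of those of genes called higher in the choroid-rich arrays (8 of 81 promoters of 62 genes). GTTGCC was found in 10.43%, 10.85% and 14.81% of the same sets (12 of 81 in the last), and in 35.48% of the promoters of the motile cilia list (11 of 31). These matches describe letters in the windows and no binding was measured.

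Ttr signal was 264038 and 224770 in control replicates 1 and 4 and 147188, 274131 and 156926 in anti-CD4 replicates 2, 3 and 4. It was 5576 and 538 in control replicates 2 and 3 and 1675 in anti-CD4 replicate 1. The lowest choroid-rich array, anti-CD4 replicate 2, stood 26.4-fold above the highest choroid-poor array, control replicate 2. Ttr spanned 1.86-fold among the choroid-rich arrays and 10.4-fold among the choroid-poor arrays. The array has 1 Ttr probe, which was well above background on all 8 arrays, so some Ttr signal was present on every array.

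**Figure D1:**
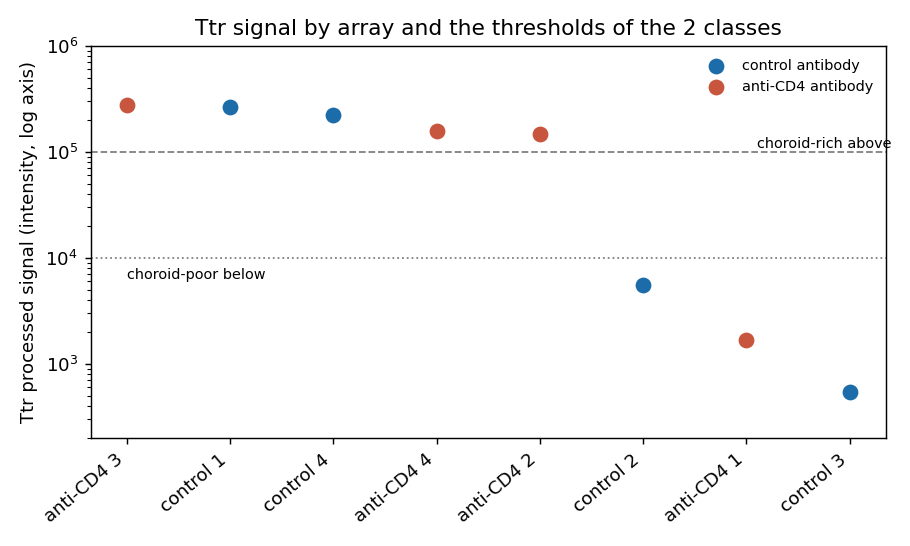
Processed signal of the Ttr probe (intensity, log axis) on each array, in descending order, coloured by antibody, with the upper and lower thresholds as dashed and dotted lines. The 5 choroid-rich arrays lie between 147188 and 274131, and the 3 choroid-poor arrays between 538 and 5576.

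Both classes held arrays of both groups. Arrays of both classes had 52.3% to 55.4% of spots well above background, 0 saturated spots and 98 to 179 flagged spots per array. Arrays correlated at 0.990 to 0.996 within the choroid-rich class, 0.991 to 0.993 within the choroid-poor class and 0.985 to 0.993 between the classes, across all tested probes. All 8 arrays lay on 1 slide, with the anti-CD4 arrays in one row and the control arrays in the other, so that slide row and treatment cannot be told apart. The antibody was therefore a covariate of the main fit of the classes, which also accounts for the slide row. Counts of classes that do not overlap, and the lower bounds given below, compare the signals without this covariate.

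The choroid-rich arrays carried higher signals of a small set of genes. Genes of the choroid plexus epithelium were among the largest differences, and most other differences were small in size. Of 30034 tested probes, 106 were higher in the choroid-rich arrays at an adjusted p under 0.05 in limma (0.353%) and 2 were lower (0.00666%). With each gene given by its brightest probe, 79 of 16190 genes were higher (0.488%) and 0 were lower (0%). At an unadjusted p under 0.05, 1207 probes were higher and 2205 lower. The 79 include Ttr itself. Of the other 78, 36 were on lists of choroid epithelium genes and 42 on none. Of the 79 genes, 26 were well above background on no choroid-poor array, and for these only a lower bound of the difference can be given. To be tested, a probe had to be well above background on 3 or more arrays. These 26 passed through the choroid-rich arrays alone, so they had to differ. The difference, measured or at its bound, was 10-fold or more for 20 of the 79. Across all tested genes the median difference was -0.045 on the log2 scale, and the middle part of the distribution, from the lower to the upper quartile, ran from -0.13 to 0.056.

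All 5 choroid-rich arrays lay above all 3 choroid-poor arrays for 583 genes (3.6%) and below them for 1190 genes (7.35%). A fitted difference of 2-fold or more was reached by 144 genes upwards (0.889%) and by 16 downwards (0.0988%), or by 132 and 14 with genes that were above background on no array of a class set at their bound. Separated genes were thus fewer upwards than downwards, while large differences were mostly upwards. The count of called probes rested on certain single arrays. It was 3 without control replicate 1, 13 without control replicate 4, 18 without anti-CD4 replicate 1, 30 without control replicate 2 and 41 without control replicate 3. Without anti-CD4 replicate 4, 2 or 3 it was 83, 109 or 141, against 106 with all arrays. All 106 probes stayed higher in value in each of these fits.

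**Figure D2:**
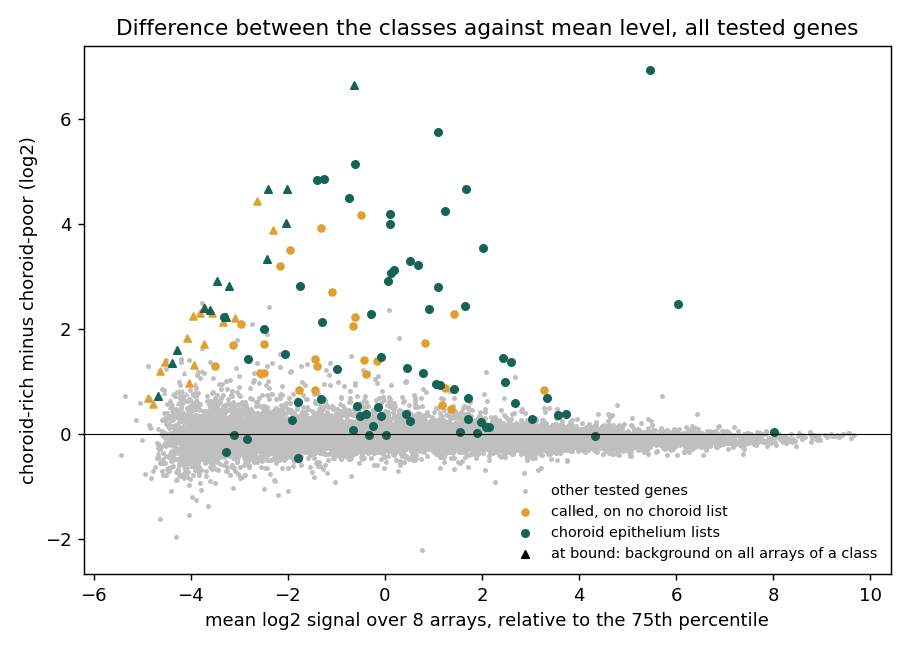
Choroid-rich minus choroid-poor difference (log2) against mean log2 signal over 8 arrays relative to the 75th percentile, 1 point per tested gene. Choroid epithelium genes are green, other called genes orange and the remaining genes grey, and triangles stand at the bound for genes above background on no array of a class. The coloured points reach 6.93 at Ttr, and of all tested genes 132 are 2-fold or more higher and 14 are 2-fold or more lower.

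The levels below are log2 signals relative to the 75th percentile of the array. They are listed in the order control 1, control 4, anti-CD4 2, anti-CD4 3 and anti-CD4 4 for the choroid-rich arrays, and control 2, control 3 and anti-CD4 1 for the choroid-poor arrays. Levels of different probes are not compared. Differences are choroid-rich minus choroid-poor on the log2 scale from the fit, with their SE. For a gene that was well above background on no choroid-poor array, the difference is given as a lower bound. The bound was taken between class means, without the antibody covariate. Choroid-poor signals below the lowest signal measured above background on their array were raised to that level. Signals of such genes above that level were used as measured, so the bound is approximate. The adjusted p beside a bound belongs to the fitted difference. These sizes hold for the processed signal. Of the 55 called genes named below other than Ttr, 24 had a log2 difference over 1.5 times smaller with normexp background correction and 31 in the authors' deposited table. Kcne2 stood at 4.30 in that table, Prr32 at 2.59, Tmem72 at 1.40 and Col8a1 at 0.94, and all 4 were called there.

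The label of the classes was set against 84 genes of choroid epithelium, of which 83 were on the array and 82 were tested. These genes were listed with earlier results of the same arrays known, so their counts describe the classes and are no independent check of the label. Of these, 37 were called higher and 0 lower, beside 0.488% and 0% of all tested genes. Ttr is one of the 37, and without it 36 of 81 were called. The classes separated upwards for 61 of the 81 and downwards for 0, beside 3.6% and 7.35% of all genes. These shares of all genes, called or separated, apply to every list below as well. The median difference of the 81 was 1.42, or 1.35 with the genes that were above background on no choroid-poor array set at their bound, beside -0.045 over all genes. Those 13 genes passed the filter on dim probes through the choroid-rich arrays alone, so they had to differ. A further 62 of the 81 were above background on all 8 arrays, and with the filter set there 25 of the 62 were called, with a median of 0.78. The median of the 81 was 0.80 in the authors' deposited table, where 43 were called. With no filter on dim probes 22 were called, and with the replicate number as a block 0. The difference was present within each antibody group, with a median of 1.64 over the 81 genes among the control arrays (2 against 2) and 1.14 among the anti-CD4 arrays (3 against 1), and 76 of the 81 were higher in value in each. The number of the 81 called without a given array was 1 without control replicate 1, 7 without control replicate 4, 9 without anti-CD4 replicate 1, 16 without control replicate 2 and 17 without control replicate 3. Without anti-CD4 replicate 4, 2 or 3 it was 30, 36 or 41. The medians ran from 1.22 to 1.64 over all arrays left out in turn.

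Secreted proteins of the choroid epithelium were among the largest differences. Of 16 on the list, all tested, 10 were called higher, 13 separated the classes and the median difference was 2.38 (2.33 with bounds). Ttr, which defined the classes, is one of them, and without it 9 of 15 were called, 12 separated the classes and the median was 2.28. Enpp2 encodes autotaxin, the enzyme that makes lysophosphatidic acid, and measured 7.13, 7.11, 6.47, 7.56 and 6.43 in the choroid-rich arrays and 4.67, 4.34 and 4.54 in the choroid-poor arrays. The choroid-rich arrays thus stood 2.47 ± 0.27 higher (adjusted p = 0.0163), with a gap between the classes larger than the spread of either. Igf2, insulin-like growth factor 2, which the plexus and the meninges release, measured -1.08, -1.54, -1.92, -1.29 and -1.68 in the choroid-rich arrays and -2.87, -3.20 and -2.88 in the choroid-poor arrays. Its difference was 1.52 ± 0.19 (adjusted p = 0.0268), smaller than that of Enpp2.

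Prr32, a gene of unclear function on this list, was above background on all 5 choroid-rich arrays and on no choroid-poor array, where it was at least 25.4-fold lower (adjusted p = 0.000665). It measured 0.43, 0.0095, -0.47, 0.59 and -0.47 in the choroid-rich arrays and -6.36, -6.45 and -6.54 in the choroid-poor arrays. Wfdc2, a secreted protein with protease inhibitor domains, differed by 4.86 ± 0.39 (adjusted p = 0.00605) and was above background on 1 of the 3 choroid-poor arrays. Ecrg4, which encodes a precursor of secreted peptides, differed by 3.54 ± 0.28 (adjusted p = 0.00605). Col8a1, a network-forming collagen chain, was at least 5.17-fold higher (adjusted p = 0.00662). Prr32, Wfdc2, Ecrg4 and Col8a1 separated the classes without overlap, beside 3.6% of all genes. The naming rule chose them for non-overlap or a small p, so this was largely set by the choice.

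The other called members of the secreted list, named after their values were seen, were Sostdc1, an antagonist of BMP signalling, at 3.06 ± 0.29, the collagen chain gene Col9a3 at 2.01 ± 0.26, and Spint2, a serine protease inhibitor, at 1.17 ± 0.12, with 0.56 by its dimmer probe (adjusted p = 0.0758). Members that were not called, also named after their values were seen, included F5, coagulation factor V, at 4.84 ± 0.73 (adjusted p = 0.0572). A second, dimmer F5 probe, above background on no choroid-poor array, was called (at least 9.06-fold higher, adjusted p = 0.00460). Igfbp2, which binds insulin-like growth factors, stood at 1.46 ± 0.22 (adjusted p = 0.0554), and Lbp, the lipopolysaccharide-binding protein, at 2.28 ± 0.34 (adjusted p = 0.0554). Clu, or clusterin, and Vegfa, both abundant in other brain cells, had differences of 0.047 ± 0.062 and 0.15 ± 0.13, and their classes overlapped.

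Channels and transporters ranged from genes near 0 to genes at least 100-fold higher. Of 29 on the list, 10 were called higher, 21 separated the classes and the median difference was 0.68, or 0.44 in the authors' deposited table. Kcne2, a potassium channel subunit found in the plexus, measured 1.95, 2.20, 1.31, 2.97 and 1.57 in the choroid-rich arrays and -4.37, -6.09 and -4.59 in the choroid-poor arrays. It was above background on all choroid-rich and no choroid-poor arrays and was at least 100-fold higher in the former (adjusted p = 0.00473). Aqp1, the water channel of the apical membrane, whose promoter is shown above, measured 1.33, 1.36, 0.60, 2.33 and 0.997 in the choroid-rich arrays and -3.34, -4.67 and -3.56 in the choroid-poor arrays. That is a difference of 5.14 ± 0.46 (adjusted p = 0.00773), and Aqp1 was above background on 2 of the 3 choroid-poor arrays.

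Folr1, a folate receptor that carries folate across the plexus, measured 3.62, 3.59, 2.82, 4.11 and 2.88 in the choroid-rich arrays and -0.99, -1.57 and -1.11 in the choroid-poor arrays. Its difference was 4.67 ± 0.33 (adjusted p = 0.00460), and a second probe, above background on no choroid-poor array, was at least 11.0-fold higher (adjusted p = 0.00662). The inward rectifier potassium channel gene Kcnj13 measured 2.99, 3.07, 1.99, 3.57 and 2.40 in the choroid-rich arrays and -0.92, -1.88 and -1.37 in the choroid-poor arrays, a difference of 4.25 ± 0.39 (adjusted p = 0.00842), with 3.74 by its other probe (adjusted p = 0.0118). Clic6, of the chloride intracellular channel family, measured 3.48, 3.40, 2.70, 3.94 and 2.79 in the choroid-rich arrays and -1.77, -3.68 and -2.04 in the choroid-poor arrays. Its classes lay 5.75 ± 0.50 apart (adjusted p = 0.00725). In each of Folr1, Kcnj13 and Clic6, anti-CD4 replicate 3 was the highest array, and all 3 choroid-poor arrays had signal above background.

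Slc4a5, a sodium bicarbonate cotransporter, was at least 25.2-fold higher in the choroid-rich arrays (adjusted p = 0.00460), while its dimmer probe, also above background on no choroid-poor array, was at least 5.46-fold higher without being called (adjusted p = 0.0572). Slco1a5, an organic anion transporter, was at least 5.25-fold higher (adjusted p = 0.00661). Further called members, named after their values were seen, were the lactate transporter Slc16a8, at least 10.1-fold higher, the retinoid transporter Abca4, at least 7.06-fold higher, and the cation channel Trpv4, at 3.12 ± 0.39. Also chosen after their values were seen, the copper transporter Slc31a1 (0.96 ± 0.15, adjusted p = 0.0636) and the sulphate transporter Slc13a4 (1.37 ± 0.24, adjusted p = 0.104) separated the classes but were not called. The same held for the anion exchanger Slc4a2 (0.86 ± 0.16), the organic anion transporter Slc22a8 (0.61 ± 0.12) and the sodium, potassium and chloride cotransporter Slc12a2 (0.29 ± 0.13). The probes of Trpm3, a cation channel gene with many transcripts, disagreed. The brightest gave 0.68 ± 0.21 (adjusted p = 0.341), and another 2.87 (adjusted p = 0.0225).

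Genes of epithelial junctions, keratins and membrane proteins had a median difference of 2.82, or 1.60 with bounds, and of 0.80 in the authors' deposited table and 1.07 with normexp background correction. Of 13 on the list, 12 were on the array and 11 tested, 5 were called higher and 10 separated the classes. Cldn2, the claudin that forms cation and water pores in leaky epithelia, measured -0.033, -0.13, -1.27, 0.25 and -1.12 in the choroid-rich arrays and -4.55, -4.61 and -4.85 in the choroid-poor arrays. It was above background on no choroid-poor array and was at least 16.2-fold higher in the choroid-rich arrays (adjusted p = 0.00596). Krt8, a keratin of simple epithelia, measured -0.53, -0.73, -1.21, -0.014 and -1.06 in the choroid-rich arrays and -3.27, -3.53 and -3.63 in the choroid-poor arrays, a difference of 2.82 ± 0.27 (adjusted p = 0.00993). Its partner Krt18, named after its value was seen, differed by 3.30 ± 0.34 (adjusted p = 0.0130).

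Tmem72, a membrane protein gene of this list, was at least 7.51-fold higher (adjusted p = 0.00518). Steap1, of a metalloreductase family, differed by 4.50 ± 0.29 (adjusted p = 0.00398). Further members were chosen after their values were seen. The claudin gene Cldn1 was at least 1.66-fold higher with an adjusted p of 0.0518, Cldn3 stood at 1.42 ± 0.32 (adjusted p = 0.200), and the cadherin gene Cdh3 was at least 3.04-fold higher (adjusted p = 0.0721). These were not called, nor were Perp, a desmosome protein gene, at 0.93 ± 0.17, or Ezr, which encodes the microvillus linker ezrin, at 0.23 ± 0.15.

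Receptors ranged from -0.34 to 3.21. Of 8 on the list, 2 were called higher, 4 separated the classes and the median difference was 0.25. Kl, or klotho, a co-receptor for FGF23, measured 2.42, 2.38, 1.43, 2.70 and 1.59 in the choroid-rich arrays and -0.28, -0.59 and -0.84 in the choroid-poor arrays. The difference was 2.80 ± 0.28 (adjusted p = 0.0120). Prlr, the prolactin receptor, measured 2.24, 2.14, 1.38, 2.31 and 1.34 in the choroid-rich arrays and -1.62, -1.43 and -0.87 in the choroid-poor arrays, a difference of 3.21 ± 0.31 (adjusted p = 0.0102). Its other probe gave 2.996 (adjusted p = 0.00621). Both genes had some signal above background on every array.

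Htr2c, the serotonin 2C receptor, which neurons also express, measured 2.68, 2.90, 3.16, 3.04 and 2.88 in the choroid-rich arrays and 2.13, 2.22 and 2.45 in the choroid-poor arrays. The classes did not overlap, and the difference of 0.60 ± 0.09 missed the threshold (adjusted p = 0.0554), while a dimmer probe was called (1.06, adjusted p = 0.0298). Npr3, the natriuretic peptide clearance receptor, stood at 0.34 ± 0.10 (adjusted p = 0.323). A further 3, named after their values were seen, overlapped between the classes. They were the leptin receptor Lepr at 0.15 ± 0.11 (0.27 and 1.03 by its dimmer probes), the growth hormone receptor Ghr at 0.09 ± 0.091 and the endocytic receptor Lrp2, or megalin, at -0.34 ± 0.27.

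Transcription factors of the dorsal midline and choroid plexus gave 2 called of 6, with 3 separating the classes and a median of 0.88, or 0.47 in the authors' deposited table. Otx2, a homeodomain factor needed to form and maintain the plexus, measured 1.84, 1.74, 1.03, 2.50 and 1.06 in the choroid-rich arrays and -2.18, -3.52 and -1.64 in the choroid-poor arrays. The difference was 4.01 ± 0.50 (adjusted p = 0.0259) by the brightest probe. A dimmer probe, above background on no choroid-poor array, was at least 1.78-fold higher without being called (adjusted p = 0.180). Lmx1a, a LIM homeodomain factor of the roof plate and cortical hem, was at least 4.71-fold higher (adjusted p = 0.0394). The homeobox gene Msx1 separated the classes at 1.48 ± 0.25 (adjusted p = 0.0856). Msx2 stood at 0.28 ± 0.09 (adjusted p = 0.351), and Hif3a, a hypoxia-inducible factor subunit named after its value was seen, at -0.46 ± 0.29.

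Enzymes and other intracellular proteins gave 8 called of 12, with 11 separating the classes and a median of 2.18 (1.74 with bounds). The median was 1.03 in the authors' deposited table and 1.08 with normexp background correction. Cox8b, a cytochrome oxidase subunit isoform, differed by 4.18 ± 0.29 (adjusted p = 0.00460). Ace, angiotensin-converting enzyme, measured -0.38, -0.48, -0.88, 0.026 and -0.73 in the choroid-rich arrays and -3.06, -2.46 and -2.39 in the choroid-poor arrays, a difference of 2.13 ± 0.25 (adjusted p = 0.0185). Calml4, a calmodulin-like protein gene, differed by 2.91 ± 0.35 (adjusted p = 0.0209), and Sulf1, an extracellular heparan sulphate sulphatase, by 2.38 ± 0.27 (adjusted p = 0.0185). The remaining called members, named after their values were seen, were the retinol dehydrogenase Rdh5 at 2.44 ± 0.31, Baiap2l1 at 2.22 ± 0.28, the imprinted cell cycle inhibitor Cdkn1c at 1.27 ± 0.17 and Cab39l at 0.99 ± 0.13, whose dimmer probes were not called (0.77 and 0.81). The paraoxonase gene Pon3 separated the classes at 1.24 ± 0.26 (adjusted p = 0.163), and Drc7 was at least 2.54-fold higher (adjusted p = 0.0824), without being called, and both were chosen after their values were seen.

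**Figure D3:**
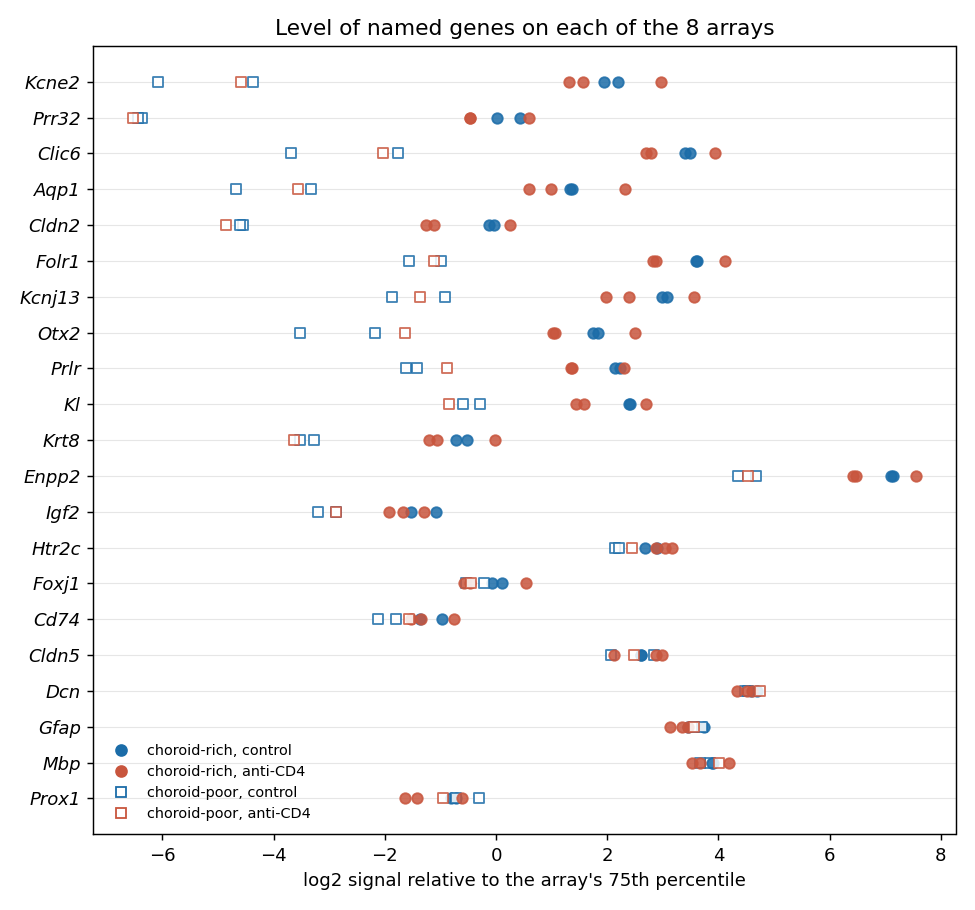
Log2 signal of 21 named genes on each array relative to the 75th percentile, with choroid-rich arrays as filled circles and choroid-poor arrays as open squares, blue for control and red for anti-CD4. The classes lie apart from Kcne2 to Cd74 except at Foxj1, where they overlap, as they do from Cldn5 to Prox1.

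Outside these lists, 42 further genes were called higher, where 0.488% of all tested genes were called. The classes separated for all 42, beside 3.6% of all genes, which a call on this same division makes likely. Under the naming rule these included Tex22, a gene named for its expression in testis, at least 21.7-fold higher (adjusted p = 0.00261), and Defb11, a defensin gene, at least 14.8-fold higher (adjusted p = 0.00469). Genes given here by a bound passed the filter on dim probes through the choroid-rich arrays alone, so they had to differ. The genes that follow were named after their values were seen. Krt23, a keratin, was at least 4.75-fold higher, the sulphotransferase Sult1c2 at least 5.29-fold, and the nucleoside transporter Slc28a3 at least 4.40-fold. Rrh, an opsin-like photoisomerase, was at least 3.56-fold higher, and Rd3, a photoreceptor protein, at least 3.30-fold. The secreted Wnt antagonists Sfrp5 and Sfrp1 differed by 3.21 ± 0.32 and 1.17 ± 0.11.

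Col8a2, which encodes the other chain of collagen VIII, differed by 2.06 ± 0.28, and Wdr86 by 4.17 ± 0.52. C1qtnf5, a secreted C1q-like protein gene, differed by 1.73 ± 0.21. Pla2g5, a secreted phospholipase, and Fap, a cell surface protease, differed by 2.71 ± 0.25 and 2.23 ± 0.23. The insulin genes Ins1 and Ins2 were both called, Ins1 at least 4.62-fold higher and Ins2 at 1.30 ± 0.15. They are near-identical copies whose probes may share signal. Smaller called differences were those of the complement regulator Cd59a (1.39 ± 0.17) and the mechanosensitive channel Piezo1 (0.55 ± 0.065). A further 8 probes without a gene name were called higher.

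Motile cilia genes, which mark ependyma and also choroid epithelium, did not follow the division as a group. Of 31 tested, 0 were called, beside 0.488% of all genes called higher. In value 16 were higher and 15 lower, and the median difference was 0.064. The classes separated upwards for 7 and downwards for 2, beside 3.6% and 7.35% of all genes. Foxj1, the factor that switches on motile cilia genes, measured 0.11, -0.074, -0.58, 0.54 and -0.47 in the choroid-rich arrays and -0.21, -0.54 and -0.45 in the choroid-poor arrays. The classes overlapped (0.34 ± 0.26, adjusted p = 0.625). Pifo, a ciliary protein gene, measured -3.04, -3.05, -3.35, -2.62 and -2.99 in the choroid-rich arrays and -3.93, -4.65 and -4.30 in the choroid-poor arrays and separated the classes at 1.27 ± 0.21 (adjusted p = 0.0801), with 1 choroid-poor array above background. Cfap52 stood at 0.98 ± 0.20 (adjusted p = 0.146), Rsph4a at 0.37 ± 0.062 (adjusted p = 0.0824) and Fam183b at -0.49 ± 0.079 (adjusted p = 0.0721), so members without overlap lay in both directions.

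Lists of the cells beneath and beside the epithelium gave 0 called genes. This is near the share of all genes, of which 0.488% were called higher and 0% lower. For the stroma list, 22 tested, the median difference was -0.0071, with 11 higher and 11 lower in value. Pcolce, an enhancer of procollagen processing, was the only member that separated the classes, and it measured 3.19, 2.95, 2.90, 3.47 and 3.03 in the choroid-rich arrays and 2.06, 1.43 and 2.35 in the choroid-poor arrays (1.09 ± 0.21, adjusted p = 0.129). The proteoglycans Bgn and Dcn stood at 0.41 ± 0.21 and -0.036 ± 0.11, and Dcn turned positive under quantile normalization (0.027), with normexp background correction (0.036) and in the authors' deposited table (0.045). The mean level of the stroma list ran from 0.46 to 0.97 in the choroid-rich and from 0.25 to 0.83 in the choroid-poor arrays.

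Macrophage lists moved little in the fit over both antibody groups, and the groups differed. Of the 16 border macrophage genes, 11 were tested, with a median of 0.099. All 11 were higher in value within the control arrays (median 0.24). Within the anti-CD4 arrays, which include 1 choroid-poor array, 2 were higher (median -0.088). Cd74, the invariant chain of MHC class II, measured -0.97, -1.37, -1.34, -1.53 and -0.76 in the choroid-rich arrays and -1.80, -2.12 and -1.56 in the choroid-poor arrays and separated the classes at 0.60 ± 0.21 (adjusted p = 0.374), while the MHC class II gene H2-Eb1 overlapped at 0.30 ± 0.20. All 15 microglia genes were lower in value, beside 37.4% of all genes that were higher, and their median of -0.036 was close to that of all genes. Of the 15, 8 were higher within the control arrays (median 0.0095) and 1 within the anti-CD4 arrays (median -0.091). Cx3cr1, the fractalkine receptor, and Gpr34 stood at -0.25 ± 0.078 and -0.25 ± 0.071.

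Vessel and blood lists also had 0 called genes, near the share of all genes (0.488% called higher and 0% lower). The median was 0.074 for 15 endothelial genes, -0.019 for 14 mural genes and 0.11 for 7 of 9 red blood cell genes. Cldn5, the claudin of the blood-brain barrier, stood at 0.17 ± 0.24, with a value of -0.015 without control replicate 3. Plvap, which marks the fenestrated vessels found in the choroid plexus, stood at 0.074 ± 0.11 (adjusted p = 0.810). The endothelial transporter Slco1a4 separated the classes upwards (0.36 ± 0.10, adjusted p = 0.302), as did Notch3, a receptor of mural cells (0.29 ± 0.091), while the mural channel subunit Abcc9 separated them downwards (-0.42 ± 0.13, adjusted p = 0.327). Alas2, the erythroid enzyme of haem synthesis, stood at 0.26 ± 0.087.

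Of 12 T lymphocyte genes, 6 were tested, with 0 called, beside 0.488% of all genes called higher, and a median of 0.098. Cd4 measured 2.19, 1.97, 2.23, 1.95 and 2.02 in the choroid-rich arrays and 1.85, 2.10 and 1.99 in the choroid-poor arrays and overlapped between the classes (0.096 ± 0.10, adjusted p = 0.737). The T cell receptor subunit gene Cd3e stood at 0.11 ± 0.11. Cd28, a costimulatory receptor, was above background on the 5 choroid-rich arrays alone and was at least 1.69-fold higher (adjusted p = 0.298). Genes of the choroid plexus as an immune gateway, such as adhesion molecules and chemokines, gave 0 called of 12 tested and a median of -0.066. Vcam1, an adhesion molecule for leukocytes, and Il10ra, an interleukin 10 receptor chain, separated the classes at 0.32 ± 0.093 and 0.19 ± 0.064 without being called.

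**Figure D4:**
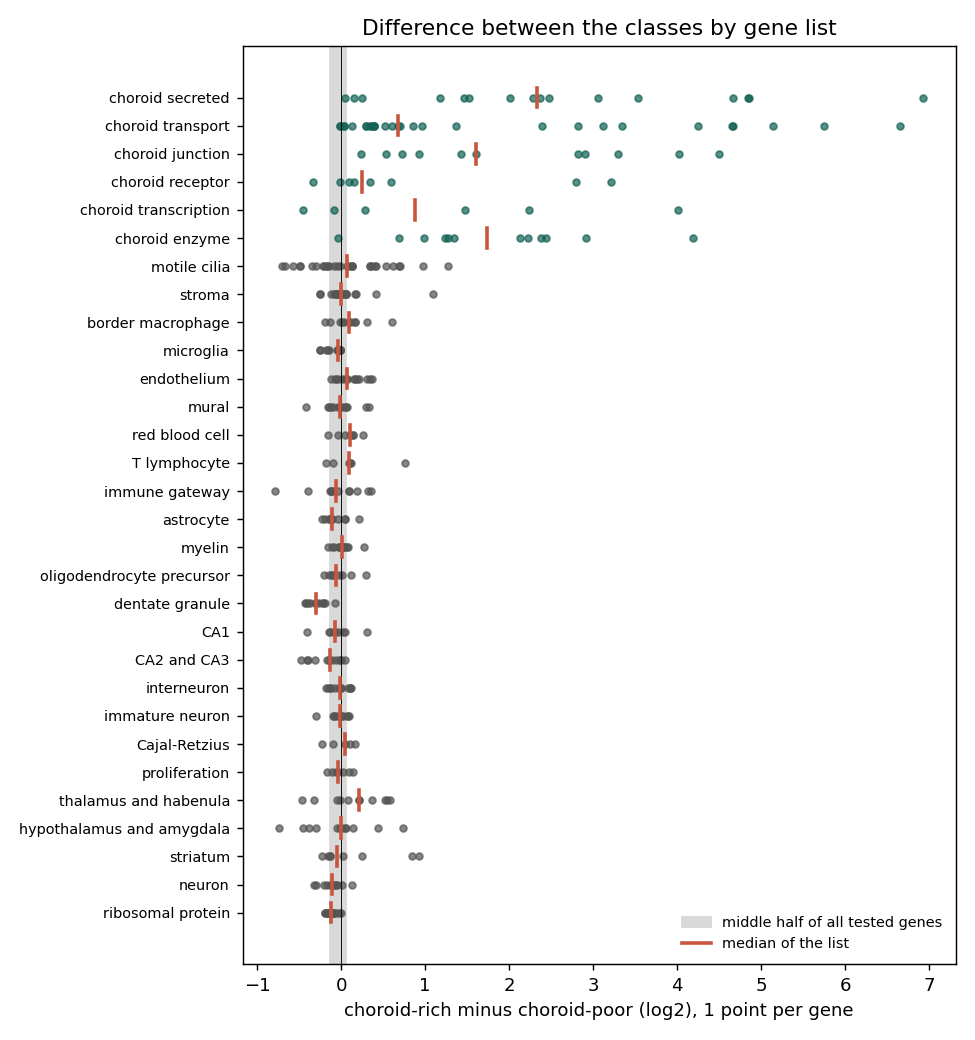
Choroid-rich minus choroid-poor difference (log2) of every tested gene of 30 lists, 1 point per gene, with the median of each list as a red line and the range between the quartiles of all tested genes in grey. Genes above background on no array of a class stand at their bound. The 6 choroid lists have medians from 0.25 to 2.33, and the 24 other lists have medians from -0.30 to 0.21.

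No hippocampal cell type list had a called gene, which is near the share of all genes (0.488% called higher and 0% lower). The 11 tested dentate granule cell genes were all lower in value in the choroid-rich arrays, with a median of -0.30, beside -0.045 over all genes, of which 37.4% were higher. The median was -0.31 within the control arrays and -0.29 within the anti-CD4 arrays. Prox1, the transcription factor of granule cells, measured -0.81, -0.71, -1.64, -0.62 and -1.43 in the choroid-rich arrays and -0.30, -0.72 and -0.95 in the choroid-poor arrays and overlapped between the classes (-0.26 ± 0.24, adjusted p = 0.684). The calcium-binding protein gene Calb1 stood at -0.37 ± 0.11 (adjusted p = 0.325) and the guidance gene Sema5a at -0.43 ± 0.16 (adjusted p = 0.397). The mean level of the list was -0.23 to 0.29 in the choroid-rich and 0.28 to 0.54 in the choroid-poor arrays, with anti-CD4 replicate 3 inside the range of the other class.

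For CA2 and CA3 genes the median of 12 was -0.13, with 11 lower and 1 higher in value, beside 37.4% of all genes that were higher, and 2 separated downwards, beside 7.35% of all genes. These were Bok (-0.48 ± 0.14) and Cpne4 (-0.31 ± 0.10, with its dimmer probes overlapping). The kainate receptor subunit Grik4 stood at -0.40 ± 0.16. General neuron genes had a median of -0.11 over 12, with 2 separated downwards, among them the AMPA receptor subunit Gria1 (-0.33 ± 0.12, adjusted p = 0.394) while the neuronal splicing factor gene Rbfox3 overlapped (-0.21 ± 0.076). The interneuron list had a median of -0.014 over 12 and 2 members separated downwards, among them Npy, neuropeptide Y (-0.18 ± 0.064). Ribosomal protein genes, present in all cells, had a median of -0.12 over 16, close to that of the neuron list, and 2 members separated downwards. The share of all genes separated downwards, 7.35%, applies to each of these lists as well.

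Glial lists lay near all genes. The astrocyte median was -0.11 over 12 genes, with Gfap, the astrocyte filament protein, at -0.13 ± 0.11 (adjusted p = 0.679), the water channel Aqp4 at -0.23 ± 0.10 and the gap junction gene Gja1 at 0.21 ± 0.084. The myelin median was 0.0048 over 15. Mbp, myelin basic protein, stood at -0.014 ± 0.16, with both signs among the alternatives, such as 0.055 under quantile normalization. The lipid enzyme Fa2h stood at -0.16 ± 0.091.

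Neighbouring brain regions were examined because a dissection can include them. Thalamus and habenula genes had a median of 0.21 over 11 tested, with 0 called. Of the 11, 7 were higher and 4 lower in value, down to -0.47, beside 37.4% of all genes that were higher, and 3 separated upwards, beside 3.6% of all genes. Lef1, a thalamic transcription factor of Wnt signalling, measured 0.83, 0.95, 0.63, 1.01 and 0.76 in the choroid-rich arrays and 0.30, 0.24 and 0.26 in the choroid-poor arrays (0.58 ± 0.098, adjusted p = 0.0838). The nuclear receptor Rora stood at 0.22 ± 0.083, and Chrnb4, a nicotinic receptor subunit of the habenula, at 0.55 ± 0.19. The list's mean level was -0.25 to -0.10 in the choroid-rich and -0.53 to -0.10 in the choroid-poor arrays. Of 8 striatum genes tested, 1 was called, the dopamine signalling protein gene Ppp1r1b (DARPP-32), beside 0.488% of all genes called higher. It measured 3.68, 3.47, 3.59, 3.75 and 3.48 in the choroid-rich arrays and 2.55, 2.78 and 2.86 in the choroid-poor arrays (0.84 ± 0.10, adjusted p = 0.0228), while the list's median was -0.054.

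Among genes lower in the choroid-rich arrays, none was called by its brightest probe, and the naming rule took those with the smallest p among genes whose classes did not overlap. Il1rap, an interleukin 1 receptor chain, measured 0.15, 0.072, -0.043, 0.24 and 0.032 in the choroid-rich arrays and 0.74, 0.66 and 0.60 in the choroid-poor arrays, a difference of -0.56 ± 0.083 (adjusted p = 0.0533). Its dimmer probes gave -0.38 and 0.16 and overlapped between the classes. Alg1, a mannosyltransferase of protein glycosylation, measured 1.58, 1.89, 2.27, 1.82 and 2.17 in the choroid-rich arrays and 2.68, 2.81 and 2.85 in the choroid-poor arrays, a difference of -0.91 ± 0.13 (adjusted p = 0.0540). Insl6 (-0.53 ± 0.078), the ephrin receptor gene Epha7 (-0.62 ± 0.10, with -0.32 and -0.36 by dimmer probes that overlapped) and Lurap1l (-0.67 ± 0.11) followed. Grpr, the gastrin-releasing peptide receptor (-0.39 ± 0.066), and Map10 (-0.38 ± 0.065) completed them beside Fam183b above. The adjusted p of these 8 genes lay between 0.0533 and 0.0867. The 2 called probes were a dimmer probe of the acetylcholine receptor gene Chrna1 (-1.02, adjusted p = 0.0417) and a probe without a gene name (-0.77, adjusted p = 0.0264).

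Within the classes, which the thresholds did not order, the called genes followed a shared pattern. Among the 78 called genes other than Ttr, anti-CD4 replicate 3 was the highest of the 5 choroid-rich arrays for 67 (85.9%, beside 23.03% of all tested genes). Anti-CD4 replicates 2 and 4 were the lowest pair for 69 (88.5%, beside 15.2%). Ttr had the same highest array and the same lowest pair. The median range among the choroid-rich arrays was 1.06 on the log2 scale for the called genes and 0.32 for all genes. The genes share these arrays and their normalization, so they are not independent observations of this order.

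The choroid-poor arrays were less alike in Ttr than in the other genes. Among 43 called genes above background on all 8 arrays, control replicate 3, lowest in Ttr, was the lowest of the 3 for 22 (51.2%, beside 31.5% of all such genes). Control replicate 2, highest in Ttr, was the highest for 19 (44.2%, beside 36.4%). The median range of the 43 over the 3 arrays was 0.40, beside 0.22 for all genes, while Ttr differed 10.4-fold.

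Because 3 of the 5 choroid-rich arrays were from anti-CD4 samples and 2 of the 3 choroid-poor arrays from controls, the classes were not balanced between the groups. With the choroid class as covariate, 0 of 30034 probes (0%) were called between anti-CD4 and control in limma, with 2045 higher and 1857 lower at an unadjusted p under 0.05 and a smallest adjusted p of 0.0729. Without the class, 0 were called as well, with 1785 higher and 2077 lower at that level and a smallest adjusted p of 0.147. Among the choroid-rich arrays alone, 2 control against 3 anti-CD4, 0 were called, in a fit added after seeing the data. In the fit with the class, leaving out control replicate 4 gave 3 called probes and leaving out anti-CD4 replicate 3 gave 2.

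Adding the class changed the treatment difference of the choroid genes, which had to follow. The classes were unevenly split between the groups, so every gene that differed by class had to shift. The values below describe that split and are no result about the treatment. Over the 82 tested choroid epithelium genes, the median anti-CD4 minus control difference was 0.36 without the class, -0.0044 with it and -0.17 among the choroid-rich arrays alone. Over all tested genes the medians were 0.015, 0.024 and 0.022. Kcne2 had a treatment difference of 1.89 ± 2.29 without the class and 0.15 ± 0.50 with it. Aqp1 had 1.42 ± 1.71 and 0.13 ± 0.44, and Enpp2 0.44 ± 0.83 and -0.18 ± 0.26. The SE was smaller with the class, which had to follow for these 3 genes because each was called for the class. Their values among the choroid-rich arrays alone were -0.12 for Kcne2, -0.039 for Aqp1 and -0.30 for Enpp2, so the direction depended on which arrays were compared.

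**Figure D5:**
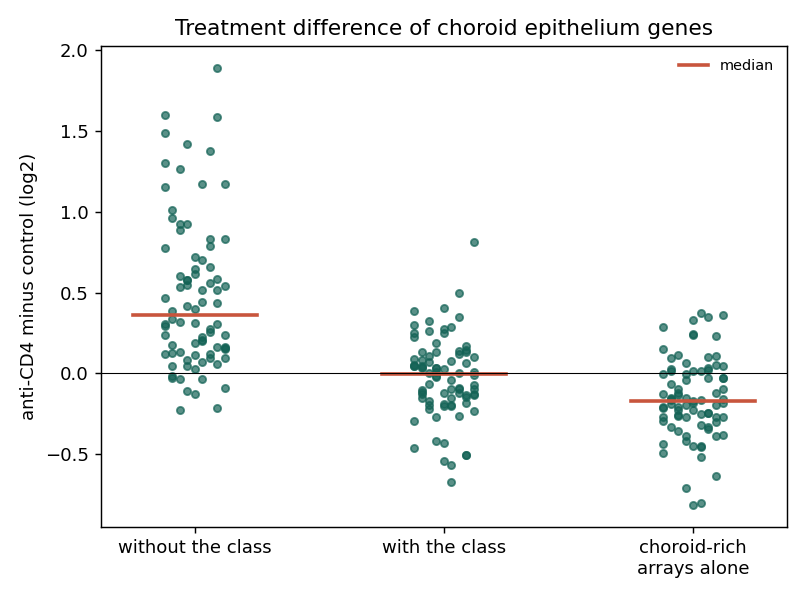
Anti-CD4 minus control difference (log2) of the 82 tested choroid epithelium genes, 1 point per gene, in the fit without the choroid class, in the fit with it and among the choroid-rich arrays alone, with the median as a red line. The medians are 0.36, -0.0044 and -0.17. The shift between the fits without and with the class follows from the uneven split of the classes between the groups.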

How the data were processed

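Per the file headers, the deposited spot files hold intensity values from Feature Extraction 10.7.3.1 on array design 028005, which the authors' scanner software had background-subtracted, with no normalization between arrays. A further table deposited by the authors holds log2 values. Their processing notes name limma, and any other step is not given in the sources used here. The files' flags for signal well above background were used as deposited.

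Control spots were left out, and the unflagged spots of 1 probe were averaged. A probe whose spots were all flagged on an array kept their mean, so flagged spots of such probes stayed in. The processed signal was put on the log2 scale and each array's 75th percentile subtracted. Probes well above background on 3 or more of 8 arrays were tested (30034 of 55681). Class and antibody entered 1 linear model per probe in limma 3.58.1 (R 4.3.3) with moderated variances, and two-sided p-values were adjusted by Benjamini-Hochberg over all tested probes, with a threshold of 0.05. The number of arrays limits the precision.

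Probes were named through RefSeq symbols (GRCm38.p6) by accession (27598), symbol (3493) or synonym (393). The name in the file was kept for 1793, and 22404 had none. A gene stands for its brightest tested probe, and other probes are given where they lie on the other side of the threshold. The classes, gene lists and naming rule were chosen with earlier results of these data known. For each direction the rule named at most 15 called genes without overlap, by size, filled to 8 by p where fewer passed. It added up to 4 genes of smallest p per list and 20 fixed genes. Alternatives covered normalization, background correction, the filter, covariates, the variance model, array weights, the authors' table, the replicate number, each array left out and a threshold of 0.1.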

Additional observations from a re-analysis of the deposited data

Results flagged for a closer look

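In the 174 sets of 5 choroid-rich values examined, 1 per named gene or list mean, an array stood apart from the other 4 in 2 sets (1.15%), and chance alone would set an array apart in about 1 set in 20. For Reln, which encodes the matrix protein reelin of Cajal-Retzius cells and some interneurons, anti-CD4 replicate 2 had the highest log2 level of the choroid-rich arrays at -1.99, and the next array was at -2.58. For Oxt, the oxytocin precursor gene, the same array was at -3.25 and the next at -4.38, and Oxt was above background on 1 of the 5 choroid-rich arrays.

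The treatment difference differed between the classes for 1 of 30034 probes, a probe of DXBay18 (interaction, adjusted p = 0.00104 in limma), with 633 probes at an unadjusted p under 0.05. Anti-CD4 replicate 1 was at a log2 level of 4.88 and the other 7 arrays lay between -0.043 and 0.45. This array is the only choroid-poor anti-CD4 array, so the interaction rests on it.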

How the results depend on the processing

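Of 79 called genes, 26 had no choroid-poor array above background, which limits their sizes to bounds. Leaving out each array in turn gave 3 to 141 probes higher, 0 to 6 lower and 0 to 3 called for treatment, against 106, 2 and 0 with all arrays. The 106 probes were higher in value in every alternative that tested them. Probes called higher numbered 61 with the filter at all 8 arrays, 56 with no filter, 161 without the covariate, 182 with trended and robust eBayes, 319 with array weights and 163 at an adjusted p under 0.1. Probes called lower numbered 4 under quantile normalization, 4 under median centring, 5 with normexp, 5 with the filter at all 8 arrays, 9 without the covariate, 8 with log2 Ttr signal in place of the class, 28 with trended and robust eBayes, 211 with array weights, 8 in the authors' deposited table, 24 at an adjusted p under 0.1 and 1 with a 2-fold minimum. Probes called for treatment numbered 3 with trended and robust eBayes, 2 with array weights, 1 in the authors' deposited table and 1 at an adjusted p under 0.1. The cause of these changes was not tested.

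With the replicate number as a block, 1 probe was called higher, 0 lower and 0 for treatment. After class and treatment, same-numbered arrays correlated at 0.296, -0.0895, -0.0848 and 0.0905. What remains after 1 fit to 8 arrays is not independent between arrays, so these values cannot decide whether the numbers pair the samples.

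Some uncalled genes changed sign. Dcn was 0.027 under quantile normalization, 0.036 with normexp, 0.045 in the authors' deposited table and -0.10 to 0.13 with arrays left out. Mbp was 0.055, 0.061 and 0.084 under the same settings, 0.039 with log2 Ttr signal, 0.014 with the replicate block, 0.057 as the mean of its probes and -0.093 to 0.14 with arrays left out. Cldn5 ranged from -0.015 to 0.35 with arrays left out. Of 34 named genes with several tested probes, 5 had probes of both signs (Aqp4, Cpne4, Ghr, Il1rap and Mbp) and none of these was called.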

Other observations

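Genes of the hypothalamus and amygdala, of which 12 of 16 were tested, followed neither the choroid classes nor a single group. Of the anti-CD4 arrays, replicate 1 had a mean log2 level of -0.77 for the list, replicate 2 of -0.41, replicate 3 of -1.68 and replicate 4 of -0.78. The 4 control arrays lay between -1.89 and -1.57. The choroid-rich minus choroid-poor median of the list was -0.0041, and 0 of the 12 genes were called. The means of the striatum list were lowest in control replicate 2 (0.73) and highest in anti-CD4 replicate 2 (1.84), across 8 tested genes.

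Lists of dividing and immature cells showed no called gene, beside 0.488% of all genes called higher. The median class difference was -0.033 over 7 of 12 proliferation genes, -0.0091 over 10 of 12 immature neuron genes, 0.049 over 5 of 7 Cajal-Retzius genes and -0.065 over 8 oligodendrocyte precursor genes. The 9 CA1 genes had a median of -0.079.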
